A study of Mus musculus with 6 samples.

Results

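S100 genes encode small calcium-binding proteins, and 10 of them, S100a1, S100a4, S100a6, S100a8, S100a9, S100a10, S100a11, S100a13, S100a14 and S100a16, were followed here in mouse mammary tumor cells with and without knockdown of Sca-1. The members were taken by name, as all probe sets whose platform gene symbol is one of these 10. On this type of array a gene's transcripts are read by short oligonucleotides in groups, each called a probe set. Of 45037 probe sets tested, 13 were assigned to a single member, and they covered 9 of the 10 genes, where the array as a whole has 18193 genes with an own probe set. S100a11 had 1 probe set, which the annotation also gives to the pseudogene S100a11-ps and to Gm12854, so its value cannot be assigned to S100a11 alone.

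The cells were Wnt1-YL, a line grown from a mammary carcinoma of an MMTV-Wnt1 mouse of the FVB/n strain, in which the mouse mammary tumor virus promoter drives Wnt1. Both groups carried a pLKO lentiviral shRNA, were selected with puromycin and were cultured with serum, insulin and EGF. The control group, shLuc (3 arrays), carried an shRNA against luciferase, and the knockdown group, shSca-1 (3 arrays), carried shRNA against Sca-1, the GPI-anchored surface protein encoded by Ly6a. The arrays asked which genes accompany the change in migration, adhesion and tumor growth of the knockdown cells. All values come from a single cell line in culture, and the rescue line with Sca-1 restored is not among the arrays. The replicates are described as biological, but no source says that each was a separate culture, so a p-value here measures the spread between these samples, which may be technical.

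S100 proteins fold around a pair of EF-hand loops, which take up calcium in most members, and they usually work as dimers. Inside the cell they bind annexins, myosin and other partners, while several are also secreted and act on receptors such as TLR4 and RAGE. S100A8 and S100A9 pair to form calprotectin, an abundant protein of neutrophils that stressed or inflamed epithelium also makes. In the mouse most S100 genes lie side by side on chromosome 3. In the order of the RefSeq gene table, S100a1, S100a13, S100a14 and S100a16 are neighbors, S100a4 and S100a6 follow with S100a5 between them, S100a8 and S100a9 come next, and S100a11 and S100a10 close the cluster beyond the cornified envelope genes.

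Promoter windows, from 250 bases before to 50 bases after the annotated start (RefSeq, GRCm38.p6), were given for 8 of the 10 members, in 9 windows. Those without were S100a10 and S100a14. The windows of S100a8 and S100a9 are shown because these neighbors, whose proteins pair, had different values in shSca-1 cells, and that of S100a4 because its value separated 1 control array from the other 5. Capitals mark the letters TATAAA, read on the transcribed strand, and TTNNGNAA, a loose form of the C/EBP site, read on both strands. The S100a8 window is chr3:90668821-90669120 (+), the S100a9 window chr3:90695672-90695971 (-) and the S100a4 window chr3:90603520-90603819 (+).
S100a8: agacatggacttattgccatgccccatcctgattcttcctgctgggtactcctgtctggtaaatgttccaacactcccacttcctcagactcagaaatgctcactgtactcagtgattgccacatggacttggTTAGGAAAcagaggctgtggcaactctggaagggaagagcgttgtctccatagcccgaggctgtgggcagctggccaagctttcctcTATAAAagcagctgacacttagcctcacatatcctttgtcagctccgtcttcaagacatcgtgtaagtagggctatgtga
S100a9: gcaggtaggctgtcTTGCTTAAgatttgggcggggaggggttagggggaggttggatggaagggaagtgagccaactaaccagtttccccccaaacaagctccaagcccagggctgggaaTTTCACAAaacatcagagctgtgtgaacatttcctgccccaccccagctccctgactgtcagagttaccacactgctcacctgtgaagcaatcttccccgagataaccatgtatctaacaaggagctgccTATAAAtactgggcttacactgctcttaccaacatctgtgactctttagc
S100a4: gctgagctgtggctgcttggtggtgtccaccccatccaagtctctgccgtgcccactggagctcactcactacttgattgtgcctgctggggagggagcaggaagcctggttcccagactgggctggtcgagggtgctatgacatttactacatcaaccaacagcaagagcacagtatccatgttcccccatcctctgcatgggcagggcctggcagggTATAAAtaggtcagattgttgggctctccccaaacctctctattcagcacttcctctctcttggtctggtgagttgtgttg

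The S100a8 window held TATAAA from position -30 to -25 before the start, and the S100a4 window held it from -31 to -26. In the S100a9 window it began at position 1, the first base of the annotated start. Over all 32851 windows of the same length, 8.32% held TATAAA. TTNNGNAA occurred once in the S100a8 window, from -117 to -110, and in the S100a9 window from -236 to -229 and from -130 to -123, against 40.7% of all windows. None of the 3 windows held TTCNNNGAA, the STAT motif (8.3% of all windows), TGANTCA, the AP-1 motif (7.81%), or GGANTTTCC, an NF-kB motif (1.25%), each searched on both strands. Among the other members, TGANTCA was found in the S100a11 window, from -136 to -130 and from -38 to -32, and in 1 of the S100a16 windows. The S100a1 and S100a13 windows lie on opposite strands and share 204 bases. These matches are descriptions of letters, not of binding.

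The values are linear intensities, and array medians lay between 37.3 and 40.6. Ly6a intensity was 7646, 7362 and 2843 on shLuc replicates 1, 2 and 3 and 285, 314 and 306 on shSca-1 replicates 1, 2 and 3 (log2 fold change -4.17, adjusted p = 0.051 from limma). Defining keratins of basal cells, Krt5 and Krt14, were bright on every array, though Krt5 was 3141 on shLuc replicate 3 against 9576 or more on the others. The other basal markers varied, from Acta2 at 4630 or more to Cnn1 at 12.4 or less on every array. shLuc replicate 3 stood apart: the summed intensity of 20 luminal markers reached 24860 there, against 674 to 776 on the other 5 arrays, and that of 16 basal markers was 23650 against 40365 to 48269. Of the 20 luminal markers, 13 were at 100 or more on this array and at least 4 times every other array. Results are therefore given with and without it, and its part in them was not tested. In RNA from a whole culture, fewer cells of a type and less RNA per cell cannot be told apart.

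S100a8 was the S100 gene that rose in shSca-1 cells at an unadjusted p under 0.01 and a fold over 1.5, the thresholds the study used, though not at an adjusted p under 0.05 on all 6 arrays. Its intensity was 36.2, 41.5 and 11.04 on shLuc replicates 1, 2 and 3, and 197, 229 and 451 on shSca-1 replicates 1, 2 and 3. The groups did not overlap, the lowest shSca-1 array being 4.74 times the highest shLuc array, and the lowest and the highest value were on shLuc replicate 3 and shSca-1 replicate 3. Group means came to 29.6 ± 16.3 (SD, n = 3) in shLuc and 292 ± 139 (SD, n = 3) in shSca-1 cells. The log2 fold change, shSca-1 minus shLuc, was 3.42 (standard error 0.56, 95% confidence interval 2.11 to 4.73), with an unadjusted p of 4.5e-04 and an adjusted p of 0.14 from limma over all probe sets. Ordered from the highest log2 fold change down, this probe set was number 5 of 45037, and number 20 without shLuc replicate 3. By limma p it was number 142 on 6 arrays. Its two-sided exact permutation p was 0.1, the smallest that 6 arrays in groups of 3 allow.

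**Figure D1:**
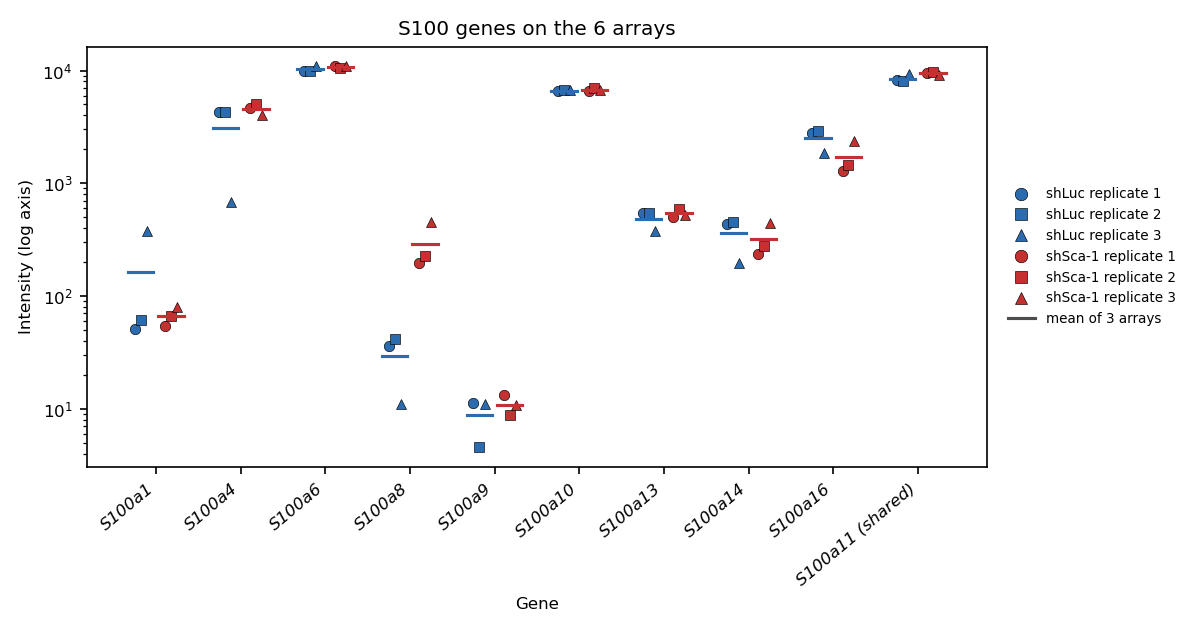
Intensity (log axis) of 9 S100 genes, each at its brightest probe set, and of the shared S100a11 probe set. Points are arrays, blue for shLuc and red for shSca-1, with a shape for each replicate number, and lines are means of 3 arrays. S100a8 lay between 11.04 and 41.5 in shLuc cells and between 197 and 451 in shSca-1 cells, while S100a9 stayed at 13.2 or less on all 6 arrays.

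The size of the S100a8 difference rested on its low control values. On shLuc replicates 1 and 2 it was at 0.917 and 1.09 times the array median, and on shLuc replicate 3 at 0.272 times. On the shSca-1 arrays it was at 5.25, 5.95 and 12.1 times the median. The fold was 10.7 as deposited and 4.26 with intensities under 64 set to 64 (adjusted p = 0.34 from limma). Without shLuc replicate 3 it was 7.04, a log2 fold change of 2.81 (95% confidence interval 2.06 to 3.57, adjusted p = 0.0091 from limma). With that array left out and intensities under 64 set to 64 together, an alternative chosen after seeing the data, the adjusted p was 0.32 from limma. The fold was 4.26 by construction, since every shLuc value was under 64 and was set to 64 in both cases. This floor lies above the median of every array. Its probe set carries a suffix, _s_at, by which the array's maker marks oligonucleotides shared by several transcripts.

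S100a9, the gene of the calprotectin partner and the next gene along the chromosome, was near the floor of the table on every array. Its intensity was 11.2, 4.54 and 10.98 on shLuc replicates 1, 2 and 3, and 13.2, 8.73 and 10.8 on shSca-1 replicates 1, 2 and 3. The groups overlapped, and all 6 values were below the array medians. The log2 fold change was 0.38 (95% confidence interval -0.76 to 1.53, limma adjusted p = 0.85). Raising all intensities under 16 to 16 left no difference, since every array was below 16. How well this probe set reads S100a9 transcripts is not known from these data.

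At the unadjusted p and fold thresholds given above, 1 of the 13 S100 probe sets was higher in shSca-1 cells, against 0.5% of all probe sets, and 0 were lower, against 1.33%. That probe set was S100a8. At an adjusted p under 0.05, limma gave 0 of 13, against 0% of all probe sets, and 0 of 13 passed when the methods' t-test was adjusted in this way, against 0.00888% of all. At an unadjusted p under 0.05 limma gave 2 of 13, S100a8 and 1 probe set of S100a10, against 9.26% of all probe sets. In 4 of 13 the 3 arrays of a group did not overlap with the 3 of the other, against 16.5% of all probe sets. Without shLuc replicate 3, 1 of the 13 was higher at an adjusted p under 0.05 in limma, again S100a8, against 0.842% of all, and 0 were lower, against 1.92%, while 4 had an unadjusted p under 0.05, against 16.3%. At the unadjusted p and fold thresholds without that array, 1 of 13 was higher, S100a8, against 0.953%, and 2 were lower, both of S100a16, against 2.61%. The same 3 probe sets were past these thresholds without shSca-1 replicate 3, in the same directions, against 0.32% of all higher and 1.34% lower. Over the 13, the median log2 fold change was 0.03, and over all probe sets it was -0.03.

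**Figure D2:**
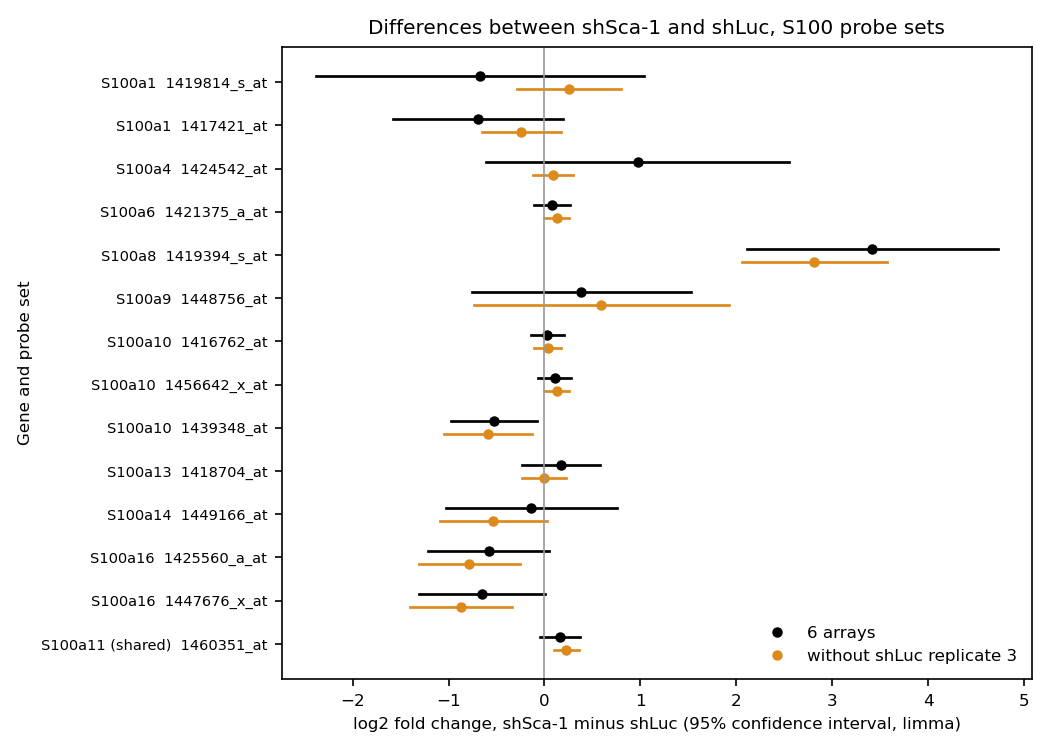
Difference in log2 intensity between shSca-1 and shLuc cells for the 13 S100 probe sets and the shared S100a11 probe set, with 95% confidence intervals from limma. Black is all 6 arrays and orange is without shLuc replicate 3. S100a8 lies at 3.42 and 2.81, and the interval of S100a4 shrinks from -0.61 to 2.55 on 6 arrays to -0.11 to 0.30 without that array.

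S100a6 and S100a10 were bright and nearly even across the arrays. S100A10 does not bind calcium itself, and sits with annexin A2 at the membrane, where the complex serves as a plasminogen receptor. Its brightest probe set had an intensity of 6537, 6677 and 6689 on shLuc replicates 1, 2 and 3 and 6594, 7019 and 6672 on shSca-1 replicates 1, 2 and 3. The groups overlapped, and the highest array was 1.07 times the lowest, against a median of 1.20 over the 668 probe sets with a mean log2 intensity of 12 or more. For this probe set the log2 fold change was 0.03 (95% confidence interval -0.15 to 0.20, adjusted p = 0.94 from limma), so a change as large as 1.5-fold lies outside the interval.

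The 2 other S100a10 probe sets did not move together. A second bright one averaged 6018 ± 177 (SD, n = 3) in shLuc and 6484 ± 93.8 (SD, n = 3) in shSca-1 cells, higher on each shSca-1 array than on any shLuc array, with a log2 fold change of 0.11 (adjusted p = 0.70 from limma). The dim one was 94.4, 90.5 and 80.4 on the shLuc arrays and 52.5, 71.1 and 62.1 on the shSca-1 arrays, lower on each shSca-1 array than on any shLuc array. Its log2 fold change was -0.52 (95% confidence interval -0.97 to -0.07, unadjusted p = 0.028, adjusted p = 0.48 from limma). The probe sets of S100a10 thus disagreed in sign, and none of the 3 was past the thresholds.

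S100a6 encodes calcyclin, a protein of proliferating epithelial cells and fibroblasts that binds the ubiquitin ligase component CACYBP. It had an intensity of 9922, 9875 and 10941 on shLuc replicates 1, 2 and 3 and 10911, 10568 and 10947 on shSca-1 replicates 1, 2 and 3. The groups overlapped through shLuc replicate 3 alone. The log2 fold change was 0.08 (95% confidence interval -0.10 to 0.26, limma adjusted p = 0.80), and leaving that array out gave 0.13 (adjusted p = 0.31). The shared probe set of S100a11, a keratinocyte S100 protein that binds annexin A1, also overlapped through that array alone, with 8174, 7995 and 9262 on the shLuc arrays and 9473, 9742 and 9195 on the shSca-1 arrays, and a log2 fold change of 0.16 on 6 arrays (adjusted p = 0.63 from limma) and 0.23 without shLuc replicate 3 (adjusted p = 0.091).

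S100a4, also called Fsp1 or metastasin, encodes a binder of non-muscle myosin and is used as a marker of fibroblasts and mesenchymal cells. Its intensity was 4275, 4248 and 688 on shLuc replicates 1, 2 and 3 and 4618, 5008 and 4068 on shSca-1 replicates 1, 2 and 3. The array shLuc replicate 3 was thus at 0.169 times the lowest of the other 5, which lay within 1.23-fold of each other. Of 5982 probe sets with at least 500 on those 5 arrays, 69, or 1.15%, were on shLuc replicate 3 at less than 0.2 times the lowest other array. The log2 fold change was 0.97 on 6 arrays (standard error 0.67, limma adjusted p = 0.71), and leaving out shLuc replicate 3 gave 0.09 (95% confidence interval -0.11 to 0.30, adjusted p = 0.69). Most of the difference between the group means of S100a4 thus came with that array.

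S100a1 showed the opposite pattern on the same array. S100A1 is best known from muscle, where it acts on calcium release. Its brighter probe set was 50.7, 61.0 and 381 on shLuc replicates 1, 2 and 3 and 54.7, 66.8 and 80.0 on shSca-1 replicates 1, 2 and 3. Like that of S100a8, this probe set carries the _s_at suffix. The other was 72.3, 76.2 and 190 on the shLuc arrays and 61.1, 63.3 and 64.1 on the shSca-1 arrays. Both were highest on shLuc replicate 3, at 4.76 and 2.50 times the next array, and within 1.58-fold and 1.25-fold among the other 5. Without it the 2 probe sets had log2 fold changes of 0.25 and -0.24 (adjusted p = 0.67 and 0.59 from limma), of opposite sign, where on 6 arrays they had -0.67 and -0.69 (adjusted p = 0.82 and 0.64).

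S100a13 faces S100a1 from the opposite strand and encodes a protein that takes part in the release of FGF1 and interleukin-1 alpha from cells. Its intensity was 540, 546 and 375 on shLuc replicates 1, 2 and 3 and 504, 597 and 526 on shSca-1 replicates 1, 2 and 3. It was lowest, not highest, on shLuc replicate 3, where S100a1 was highest. The log2 fold change was 0.17 (limma adjusted p = 0.80), and leaving that array out gave -0.00 (95% confidence interval -0.23 to 0.22, adjusted p = 0.99). Among the partners it helps to release, Il1a was past the thresholds and Fgf1 was not (log2 fold change 0.10, adjusted p = 0.91 from limma).

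S100a14 and S100a16, neighbors on the chromosome and both genes of epithelial S100 proteins, had lower values on 2 of the 3 shSca-1 arrays. S100a16 had an intensity of 2778, 2885 and 1850 on shLuc replicates 1, 2 and 3 and 1291, 1442 and 2380 on shSca-1 replicates 1, 2 and 3. Its other probe set had the same order, with 2320, 2450 and 1506 on the shLuc arrays and 1048, 1110 and 1901 on the shSca-1 arrays. The groups overlapped through shLuc replicate 3 and shSca-1 replicate 3. The log2 fold changes were -0.58 and -0.65 on 6 arrays (adjusted p = 0.58 and 0.54 from limma). Without shLuc replicate 3 they were -0.79 and -0.87, both past the unadjusted p and fold thresholds, with adjusted p of 0.13 and 0.10. Without shSca-1 replicate 3 the brighter one had -0.85 and was also past them.

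S100a14 had an intensity of 437, 451 and 196 on shLuc replicates 1, 2 and 3 and 235, 276 and 447 on shSca-1 replicates 1, 2 and 3. Set against the mean of shLuc replicates 1 and 2, S100a14 was at 52.9%, 62.1% and 100.8% on shSca-1 replicates 1, 2 and 3, and S100a16 at 45.6%, 50.9% and 84.1%. On shLuc replicate 3 they were at 44.0% and 65.3%. Group means of S100a14 came to 361 ± 144 (SD, n = 3) in shLuc and 319 ± 113 (SD, n = 3) in shSca-1 cells. The spread within each group was thus wider than the difference. Its log2 fold change was -0.14 (95% confidence interval -1.03 to 0.76, adjusted p = 0.94 from limma). Without shLuc replicate 3 it was -0.53 (adjusted p = 0.33). For both genes shSca-1 replicate 3 was closer to shLuc replicates 1 and 2 than to the other shSca-1 arrays, while for S100a8 it was the farthest from them.

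**Figure D3:**
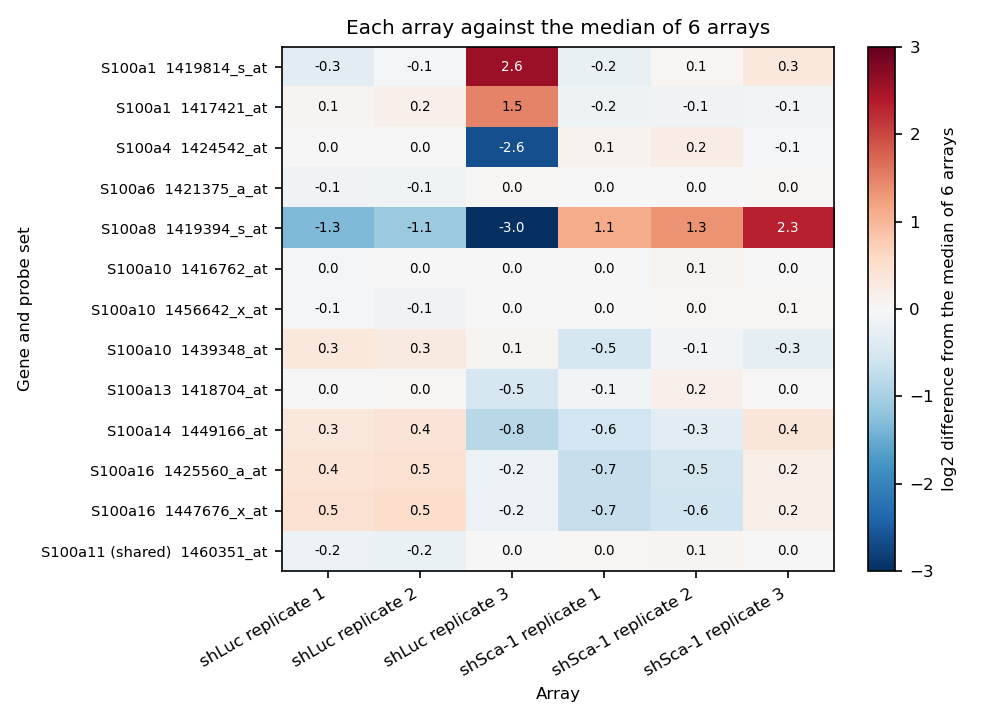
Log2 difference of each array from the median of the 6 arrays, for 12 S100 probe sets and the shared S100a11 probe set (rows). S100a9 is left out because all its values were near the floor. Only S100a8 has both groups on opposite sides by more than 1, S100a1 is high and S100a4 low on shLuc replicate 3, and S100a14 and S100a16 are low on shSca-1 replicates 1 and 2 and on shLuc replicate 3, where S100a14 is lowest of all.

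Genes of inflammation that can induce S100a8 and S100a9 differed in both directions. Of 17 measured, 2 were higher past the thresholds, Il1a and Il6, against 0.5% of all probe sets, and 1 was lower, Jun, against 1.33%. By the methods' t-test only Jun was past the same thresholds. Their median log2 fold change was 0.07. Il1a, the interleukin-1 alpha gene, was 113, 107 and 25.4 on shLuc replicates 1, 2 and 3 and 374, 381 and 987 on shSca-1 replicates 1, 2 and 3, the same order of arrays as S100a8 apart from shLuc replicates 1 and 2. Il6 had another order, with 44.1, 23.2 and 113 on the shLuc arrays and 528, 565 and 240 on the shSca-1 arrays, so that shSca-1 replicate 3 was the lowest of its group. Both encode cytokines. Their log2 fold changes were 2.95 and 3.09 (adjusted p = 0.25 and 0.20 from limma). Without shLuc replicate 3 both were higher at an adjusted p under 0.05 (0.028 and 0.0076 from limma), against 0.842% of all probe sets.

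Jun, an AP-1 subunit gene, was 1034, 950 and 1353 on the shLuc arrays and 582, 671 and 591 on the shSca-1 arrays, or -0.84 as a log2 fold change (standard error 0.15, limma adjusted p = 0.18). Stat3, the transcription factor gene downstream of interleukin-6, was 1357, 1295 and 1731 on the shLuc arrays and 931, 939 and 1054 on the shSca-1 arrays, with -0.57 (adjusted p = 0.28), under the fold threshold. In neither gene did the groups overlap. Both were lower at an adjusted p under 0.05 without shLuc replicate 3 (0.014 and 0.037 from limma), against 1.92% of all probe sets. Il1b and Tnf, genes of other inflammatory cytokines chosen after their values were seen, had log2 fold changes of -0.10 and -0.59 (adjusted p = 0.94 and 0.78 from limma).

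Of 10 measured S100 receptor genes, 0 were past the thresholds, against 0.5% of all probe sets higher and 1.33% lower. Their median log2 fold change was -0.20. Tlr4, the Toll-like receptor for S100A8, was 160, 185 and 154 on the shLuc arrays and 102, 130 and 110 on the shSca-1 arrays. The groups did not overlap, with a log2 fold change of -0.55 (unadjusted p = 0.011, adjusted p = 0.37 from limma). Without shLuc replicate 3 Tlr4 was the 1 receptor gene past the thresholds, at -0.60, against 2.61% of all probe sets lower. Ager, which encodes RAGE, was at 13.96 or less on all 6 arrays and was chosen after its values were seen. Nptn, the neuroplastin gene, had -0.22 on 6 arrays (adjusted p = 0.65 from limma) and -0.35 without shLuc replicate 3 (adjusted p = 0.031 from limma). Without that array it was the 1 receptor gene lower at an adjusted p under 0.05, against 1.92% of all probe sets. Alcam was 604 on shLuc replicate 3 and between 77.7 and 136 on the others. The other gene named by rule, Myd88, an adaptor of TLR4, had -0.17 (adjusted p = 0.73 from limma).

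Of 16 measured S100 binding partners, 0 were past the thresholds, against 0.5% of all probe sets higher and 1.33% lower. Their median log2 fold change was 0.02. Anxa2, the annexin that holds S100A10, was 9071, 8661 and 9019 on the shLuc arrays and 10231, 10798 and 11190 on the shSca-1 arrays. The groups did not overlap, and the log2 fold change of 0.27 had an unadjusted p of 0.0091 and an adjusted p of 0.35 from limma. Ahnak, whose giant protein binds the complex of S100A10 and annexin A2, was 4940, 5011 and 3963 on the shLuc arrays and 2947, 2971 and 3724 on the shSca-1 arrays. Ahnak had a log2 fold change of -0.53 (adjusted p = 0.32 from limma) and -0.64 without shLuc replicate 3 (adjusted p = 0.025 from limma). Without that array it was the 1 partner lower at an adjusted p under 0.05, against 1.92% of all probe sets. At the unadjusted thresholds 3 partners were lower without that array, Ahnak, Anxa6 and Kcnk3, against 2.61% of all probe sets. Anxa6 and Kcnk3 had -1.26 and -0.79 on 6 arrays (adjusted p = 0.47 and 0.45 from limma) and -0.71 and -0.95 without shLuc replicate 3 (adjusted p = 0.072 and 0.13). Anxa6 was 1002 on shLuc replicate 3 against 334 or less on the others.

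**Figure D4:**
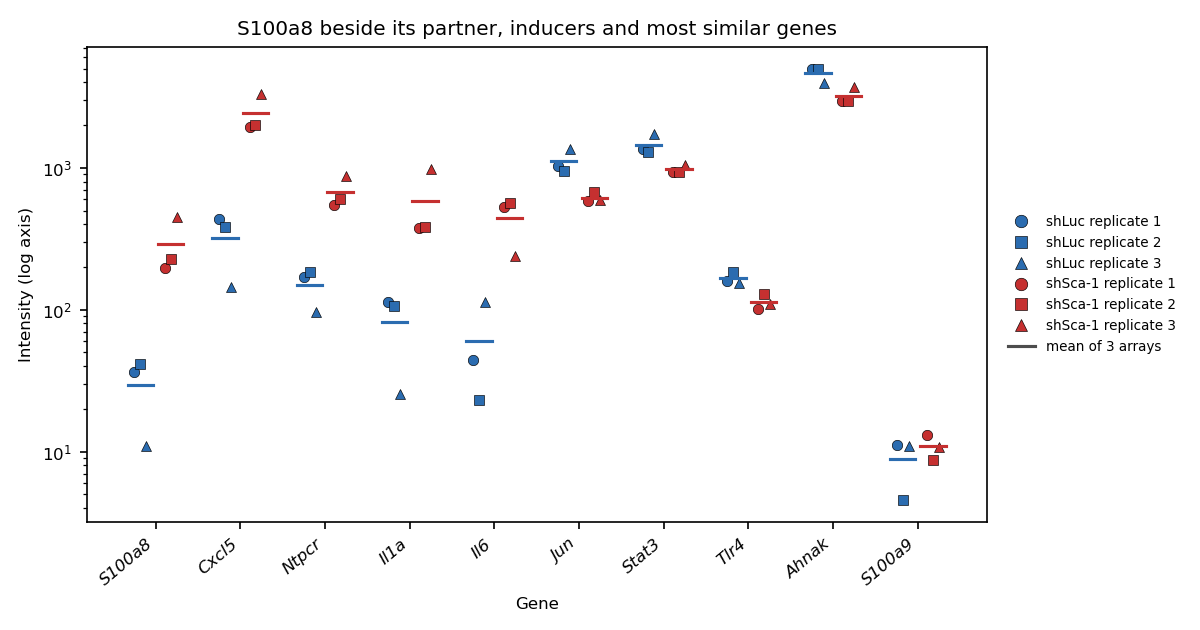
Intensity (log axis) of S100a8 and S100a9 beside 4 inducer genes, a receptor and a partner gene, and the 2 genes whose values followed S100a8 most closely. Points are arrays, blue for shLuc and red for shSca-1, and lines are means of 3 arrays. S100a8, Cxcl5, Ntpcr and Il1a are highest on shSca-1 replicate 3, Il6 is lowest there within its group, and Jun and Stat3 are lower in shSca-1 cells.

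The genes whose log2 values followed S100a8 most closely over the 6 arrays, among 9939 genes with a mean log2 intensity of 6 or more, were Cxcl5, a neutrophil chemokine gene, Ntpcr and Nup43, with Pearson's r of 0.997, 0.996 and 0.994. These points share the outlying array, and the coefficients are descriptions over n = 6. Cxcl5 was 435, 382 and 146 on the shLuc arrays and 1946, 2015 and 3337 on the shSca-1 arrays. Pearson's r does not measure the size of a change. Nup43 differed far less, at 474, 470 and 434 on the shLuc arrays and 525, 525 and 539 on the shSca-1 arrays. For S100a14 the closest were Cars, Mthfd1l and Herpud2 (0.998, 0.998 and 0.996), all low on shLuc replicate 3 and on shSca-1 replicates 1 and 2. For S100a9 they were Zfp595, Mical3 and Pold3 (0.990, 0.954 and 0.914), a likeness that follows values near the floor.

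Other genes around the S100 family gave no calls at thresholds that 0.5% of all probe sets passed as higher and 1.33% as lower. Lists this short can be without a call at such shares. Of 9 measured genes of other S100 and S100-fused proteins, such as S100a3, S100b, S100g and Flg, 0 were past the thresholds, and 5 were below the array median on all 6 arrays. S100a3 was highest on shLuc replicate 3, at 71.8 against 51.6 or less. Of 13 measured cornified envelope genes, which lie within the cluster, 0 were past the thresholds, and Sprr2d had the smallest p, with a log2 fold change of 1.09 (adjusted p = 0.54 from limma). Sprr1b, chosen after its values were seen, was 122, 128 and 10.2 on the shLuc arrays and 30.4, 54.8 and 353 on the shSca-1 arrays, lowest and highest on the same arrays as S100a8 but with groups that overlapped. Of 18 measured genes of other EF-hand proteins, 0 were past the thresholds, with a median of 0.01.

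Markers of neutrophils and other myeloid cells, in which S100a8 is abundant, gave no higher calls. Of 19 measured, 0 were past the thresholds on 6 arrays, against 0.5% of all probe sets higher and 1.33% lower. A list this short can be without a call at such shares. Without shLuc replicate 3, 1 was lower, against 2.61% of all, the macrophage marker Cd68 (log2 fold change -1.66). On all 6 arrays 11 of the 19 were below the array median. The summed intensity of the 19 was 853 to 987 in shLuc cells and 761 to 917 in shSca-1 cells. Csf3r, the neutrophil growth factor receptor gene, was at 1 on the shLuc arrays and at 1.22 or less on the shSca-1 arrays, and Tyrobp was at 11.6 or less on every array. Ptprc, the CD45 gene, was 8.40, 3.98 and 11.6 on the shLuc arrays and 14.1, 11.8 and 20.5 on the shSca-1 arrays. These dim values were higher on each shSca-1 array than on any shLuc array, with a log2 fold change of 1.04 (adjusted p = 0.60 from limma). Lyz2, the lysozyme gene of myeloid cells, was also without overlap, at 42.4 to 47.4 in shLuc and 57.5 to 65.5 in shSca-1 cells (0.44, adjusted p = 0.54). The part of such cells in the S100a8 values was not tested. The other genes named by rule, Ltf and Fcer1g, had -1.28 and -1.34 (adjusted p = 0.66 and 0.69 from limma). Adgre1, the macrophage gene for F4/80, and Ngp, a neutrophil granule gene, were brighter, at 111 to 164 and 84.6 to 132, with overlapping groups. Csf3r, Tyrobp, Adgre1 and Ngp were chosen after their values were seen. Of the 12 fibroblast and endothelial markers, 0 were past the thresholds on 6 arrays, and their summed intensity was 305 to 499 in shLuc cells and 534 to 565 in shSca-1 cells. The largest values in the shSca-1 sums were Pdgfrb on replicates 1 and 2 and Pdgfra on replicate 3. Pdgfrb, chosen after its values were seen, was 157, 170 and 3.26 on the shSca-1 arrays, and Pdgfra was 96.2, 108 and 292. Of the 12, 6 had a positive log2 fold change. Col1a1 and Thy1 had the smallest p, and in neither did the groups overlap. Col1a1 was 17.35, 12.5 and 14.96 on the shLuc arrays and 36.77, 38.76 and 18.04 on the shSca-1 arrays. Thy1 was 6.91, 10.53 and 11.38 on the shLuc arrays and 15.88, 15.02 and 30.31 on the shSca-1 arrays. Their log2 fold changes were 0.995 and 1.04 (adjusted p = 0.505 and 0.524 from limma). Col1a2 had -0.639, with overlapping groups. Of 16 basal markers 3 were lower past the thresholds, Krt17, Krt15 and Myl9, against 1.33% of all probe sets. Without shLuc replicate 3, 6 were past them, of which Lamb3 was higher, against 0.953% of all, and the others lower, against 2.61%. Of 20 luminal markers 0 were past the thresholds on 6 arrays or without that array, against the shares of all probe sets given above.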

How the data were processed

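RNA from 3 shLuc and 3 shSca-1 samples was hybridized to Affymetrix mouse arrays. The sources give different names for the chip, and the table has 45101 probe sets. The deposited values are linear intensities that the authors computed with dChip (PM-MM model, invariant set normalization). Of all values, 1.12% are exactly 1. The dChip version and genome build are not given in the sources used here. The number of arrays limits the precision.

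After removal of 64 control probe sets, intensities were floored at 1 and put on the log2 scale, with no further filter. Groups came from the labels. All 45037 probe sets were fitted with limma 3.58.1 in R 4.3.3 (lmFit, eBayes with a trend in the variance), without a replicate block, and p-values were adjusted by Benjamini-Hochberg over all of them. The script was tested on simulated data. Genes were named from the platform annotation: 34945 probe sets had 1 symbol, 932 several and 9160 none. The brightest probe set stands for its gene. Ly6a, without a symbol there, was found through the probe set that the study's gene list gives.

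Named were all members, up to 4 genes of each list with the smallest p, and the 3 genes most correlated with S100a8, S100a9 and S100a14. Members and lists were chosen with earlier results of these data known. Deviations of same-numbered arrays from their group means had correlations of -0.04, -0.02 and -0.03. These values show no pairing by number, but with 3 arrays per group they cannot exclude it. Alternatives were 2 normalizations, floors of 16 and 64, a filter at the 40th percentile, 2 variance models, a replicate block, each array left out in turn, the methods' t-test, arithmetic instead of log-scale means, and averaging a gene's probe sets. Promoters are RefSeq sequences of GRCm38.p6. Protein sequences were not used here.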

Additional observations from a re-analysis of the deposited data

How the results depend on the processing

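S100a8 was higher under all 18 alternatives, with log2 fold changes from 2.09 to 3.77, and its adjusted p ranged from 0.0091 to 0.60. S100a4, S100a6 and S100a16 kept their signs under all 18, with ranges of 0.09 to 1.41, 0.05 to 0.14 and -0.85 to -0.41. The count of S100 probe sets past the thresholds was 1 to 3 when an array was left out, the 3 being S100a8 and both S100a16 probe sets without shLuc replicate 3, and the count was also 3 without shSca-1 replicate 3. At an adjusted p under 0.05 it was 0 to 1. Without shLuc replicate 3 and with intensities under 64 set to 64 the first count was 0, S100a1 had 0.13 and S100a13 -0.0042. With arrays left out in turn, S100a1 ranged from -1.20 to 0.25, S100a9 from -0.044 to 0.61, S100a10 from -3.0e-04 to 0.045, S100a13 from -0.0042 to 0.27 and S100a14 from -0.53 to 0.071. S100a10 had -0.011 after quantile normalization and -0.13 as the mean of its probe sets. None of these sign changes was in a gene past the thresholds, and their cause was not tested. With a replicate block, S100a8 had 3.42 (unadjusted p = 0.0024 from limma) and remained the 1 S100 probe set past the thresholds, and the block changed no S100 call. The inducer list had 1 gene past the thresholds by the methods' t-test in place of 3, and the basal list 1 with intensities under 64 set to 64, also in place of 3. Without shSca-1 replicate 3, 1 partner and 2 fibroblast and endothelial markers were past the thresholds, in place of 0. Of all probe sets, 0.32% were higher and 1.34% lower past them without that array. With no trend in the variance, by the methods' t-test and with the replicate block, 1 fibroblast or endothelial marker was past the thresholds. The filter at the 40th percentile left S100a9 out. Signal near the floor limits S100a9. Low signal limits the control values of S100a8, which were at 1.09 times the array median or less.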
